A study of Macaca mulatta with 18 samples.

Results

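The metallothioneins and MTF1, the transcription factor that switches them on, were followed in the vastus lateralis, a thigh muscle, of young, middle-aged and old rhesus monkeys. Probes were taken by the gene symbol that the platform annotation gives them, for 10 genes: MT1A, MT1E, MT1F, MT1G, MT1H, MT1M, MT1X, MT2A, MT3 and MTF1. Of these, 9 genes had a probe named by their symbol, with 11 probes among the 47323 of the chip, and MT1A had none. A probe was tested where its detection p-value was under 0.05 on at least 6 of the 18 arrays, which kept 14188 probes and 5 of the 11 members, 4 for metallothioneins and 1 for MTF1.

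The muscle came from 18 male rhesus monkeys, 6 young (6.00 ± 0.00 years), 6 middle-aged (16.48 ± 0.31 years) and 6 old (26.83 ± 0.22 years, SEM, n = 6 each), with 1 array per animal. No genotype or treatment set the ages apart in the labels: all animals were caged singly, ate a standard chow, and came from ongoing studies whose treatments, if any, the labels do not give. The biopsies were snap frozen and RNA was extracted from the whole tissue, so fewer cells of a type and less RNA per cell cannot be told apart. The chip, Sentrix Human HT-12, carries probes for human transcripts, so how bright a probe is reflects both how much monkey transcript is there and how well it pairs with a human sequence, and no probe's level is set against another's here. A level below is the Z score of the log intensity within its array, multiplied by 1.19 and added to 6.72 so that it reads in log2 intensity units.

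Metallothioneins are very small proteins rich in cysteine that bind zinc and copper, buffer their free concentration in the cell, and can scavenge oxidants. Their genes are among the most strongly inducible known: zinc, other metals, glucocorticoid hormones, cytokines and oxidative stress all raise their transcripts. MTF1 is a zinc finger factor that senses a rise in free zinc and binds the metal response elements in metallothionein promoters. MT2A and the MT1 genes are made in many tissues, while MT3 was first known from the brain. Since the MT1 and MT2A transcripts are near copies of one another, a probe named for 1 of them can also bind others, and how the signal divides between copies is uncertain.

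In the rhesus annotation of RefSeq (T2T-MMU8v2.0, used here for names and order only), 7 of the 10 genes had an entry by the same symbol. MT1F, MT1G and MT1H had none, so which monkey transcript their probes read is uncertain. In that annotation 6 metallothionein genes lay in 1 cluster, in the order MT3, MT2A, MT1E, MT1M, MT1A and MT1X, with MT1L after MT2A and MT1J before MT1A. A further 13 entries without a metallothionein symbol lay between MT1A and MT1X. MTF1 lay on another chromosome.

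Of the family, a probe named for each of 4 genes, MT2A, MT1X, MT1G and MT1E, was detected on all 18 arrays, and so was that of MTF1. The probes of MT1F, MT1M and MT3 and both probes of MT1H were detected on 0 of 18 arrays. Their intensities were 68 to 104 for MT1F, 44 to 65 for MT1M and 49 to 76 for MT3, against array medians of 71 to 97. The MT1H probes read 62 to 107 (ILMN_1683923) and 47 to 67 (ILMN_2124802). The second MT1E probe, ILMN_1718968, read 74 to 125 and was detected on 2 of 18 arrays, those of middle-aged replicate 5 and old replicate 1, although the other MT1E probe was detected in every animal. On human probes a transcript that is not detected may be low or poorly matched, so these 6 probes set no level for their genes. Of family probes outside the 10 genes, MT1B and MT4 were detected on 0 arrays and MT1L and MT1IP on 1 array each.

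MT2A, the most widely made metallothionein, showed the clearest difference between the ages. Its probe (ILMN_1686664) read 7.43, 8.23 and 8.83 (lowest, median, highest log2 level) in the young animals, 7.74, 8.19 and 8.46 in the middle-aged and 8.27, 8.89 and 11.81 in the old. The groups overlapped, but all 6 old animals lay above the median of either younger group, and 3 lay above every young and every middle-aged animal. The mean was 9.53 ± 1.5 in old muscle and 8.23 ± 0.47 in young muscle (SD, n = 6 each), a log2 fold change of 1.30 (SE 0.48, 95% interval 0.30 to 2.31), which did not pass in limma's test (unadjusted p = 0.0137, adjusted p = 0.293). Against middle-aged muscle, at 8.20 ± 0.26, the old animals were 1.33 higher (SE 0.48, adjusted p = 0.157, limma). Middle-aged muscle differed from young muscle by -0.03 (95% interval -1.03 to 0.98).

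MT1X, another inducible MT1 gene, had both its lowest and its highest value of all 18 animals in old muscle. The probe (ILMN_1775170) read 8.23, 9.65 and 10.04 in the young animals, 8.22, 9.33 and 9.76 in the middle-aged and 7.84, 9.66 and 13.49 in the old. The medians of the old and the young animals were 0.01 apart, while the means, 10.13 ± 1.94 in old and 9.33 ± 0.74 in young muscle, were 0.80 apart (SE 0.65, adjusted p = 0.723, limma). The mean difference therefore lay in the upper tail of the old group: 2 of the 6 old animals were above every young animal and 3 were above the young median. Old muscle stood 1.05 above middle-aged muscle (SE 0.65, adjusted p = 0.418, limma), whose mean was 9.08 ± 0.68.

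MT1G moved almost as MT2A did. Its probe (ILMN_1715401) read 6.86, 7.48 and 7.92 in young muscle, 6.76, 7.33 and 7.75 in middle-aged muscle and 7.42, 7.88 and 10.82 in old muscle. The old mean of 8.53 ± 1.40 was 1.05 above the young mean of 7.48 ± 0.38 (SE 0.45, unadjusted p = 0.0303, adjusted p = 0.391, limma) and 1.21 above the middle-aged mean of 7.32 ± 0.36 (SE 0.45, adjusted p = 0.168). All 6 old animals exceeded the middle-aged median, and 3 exceeded every middle-aged and every young animal.

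MT1E differed from the other 3 in that its old animals were more evenly spread. The probe that was detected (ILMN_2173611) read 7.94, 9.01 and 9.40 in young muscle, 7.37, 8.37 and 9.69 in middle-aged muscle and 8.14, 9.59 and 10.73 in old muscle. The old mean, 9.63 ± 0.91, was 0.75 above the young mean of 8.88 ± 0.49 (SE 0.41, adjusted p = 0.522, limma) and 1.08 above the middle-aged mean of 8.55 ± 0.86 (SE 0.41, unadjusted p = 0.0157, adjusted p = 0.175). Here 4 of 6 old animals lay above every young animal, the medians of old and young muscle were 0.58 apart, and old replicate 6 was low at 8.14. The 3 ages were otherwise in no firm order, since middle-aged and young muscle differed by -0.33 (95% interval -1.18 to 0.52).

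MTF1, the regulator, had a narrow range. Its probe (ILMN_1763828) read 7.64, 7.79 and 7.98 in young muscle, 7.35, 7.88 and 8.19 in middle-aged muscle and 7.75, 8.03 and 8.36 in old muscle. The old mean of 8.06 ± 0.24 was 0.26 above the young mean of 7.80 ± 0.14 (SE 0.14, unadjusted p = 0.0696, adjusted p = 0.495, limma) and 0.23 above the middle-aged mean of 7.83 ± 0.32 (SE 0.14, adjusted p = 0.392). The old group overlapped both others, with 4 of its 6 animals above every young animal and 2 above every middle-aged animal. Under the methods' t-test on Z scores (6 animals against 6, not an exact test), with a Z ratio above 1.5 in size and a mean Z score above 0, MTF1 was the 1 member called between old and young muscle (p = 0.0446, Z ratio 1.86), and its p was 0.674 after Benjamini-Hochberg adjustment over the chip. The same rule called 1015 of the 47323 probes, or 2.14%.

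**Figure D1:**
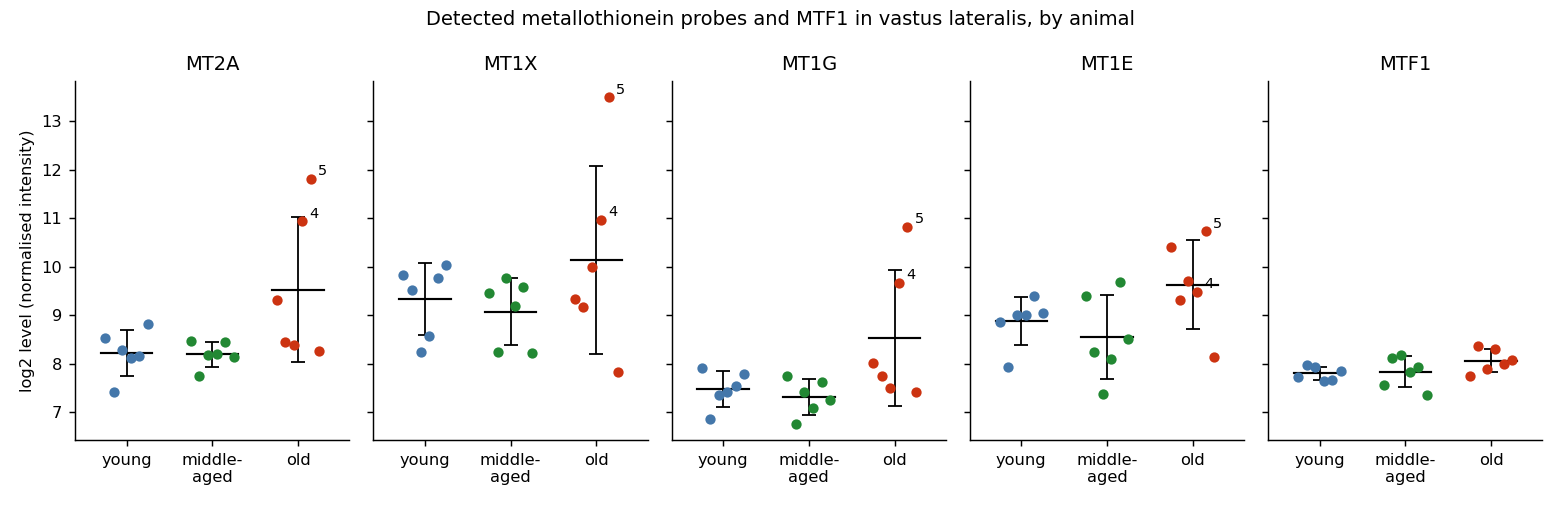
Log2 level of the 4 detected metallothionein probes and of MTF1 in each animal (points, 6 per age), with the mean (long line) and SD (error bar) of each age. Old replicates 4 and 5, numbered in the metallothionein panels, reach 10.94 and 11.81 for MT2A and 10.96 and 13.49 for MT1X, while MTF1 lies between 7.35 and 8.36 in all animals.

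Across the 3 comparisons, 0 of the 5 tested members passed an adjusted p of 0.05 in limma. Between old and young muscle the share of all 14188 probes that passed was 0.19%, between old and middle-aged muscle 0.874% and between middle-aged and young muscle 0.0211%, so 5 probes would hold few or no calls at these rates. At an unadjusted p under 0.05, 2 members were higher in old than in young muscle (MT2A and MT1G), 3 were higher in old than in middle-aged muscle (MT2A, MT1G and MT1E) and 0 differed between middle-aged and young muscle. Of all probes, 5.62% were higher in old than in young muscle and 9.54% higher in old than in middle-aged muscle at that p, and 10.4% differed in either direction between middle-aged and young muscle. The 4 metallothionein probes had a median log2 fold change of 0.93 between old and young muscle and 1.15 between old and middle-aged muscle, with all 4 above 0 in both, against medians of -0.0037 and 0.013 over all tested probes. Between middle-aged and young muscle the median was -0.21, with all 4 below 0 and the largest fall, that of MT1E, at -0.33, against -0.011 over all tested probes. These 3 comparisons share animals, so their values do not support each other.

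**Figure D2:**
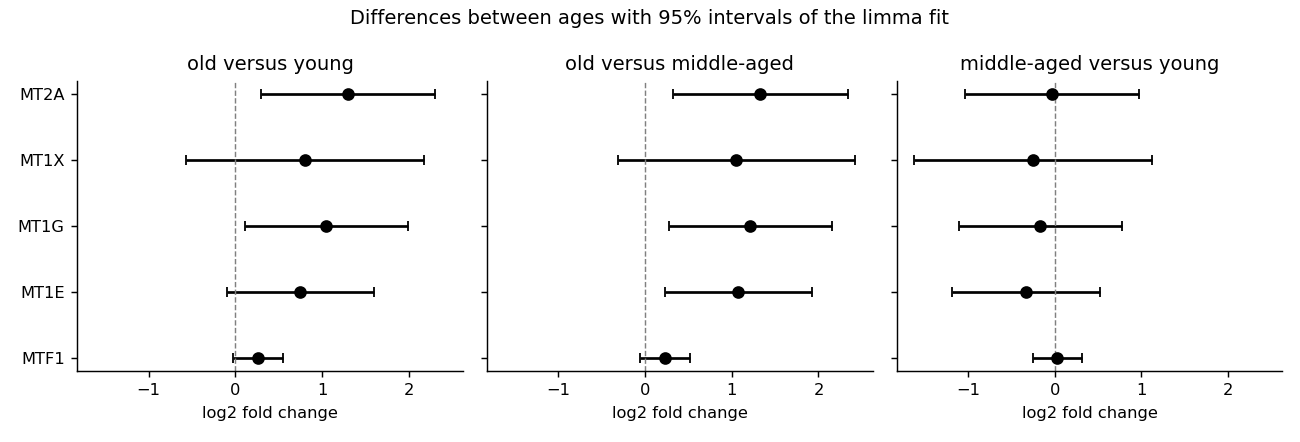
Log2 fold change of each tested probe (points) with the 95% interval of the limma fit (bars) in the 3 comparisons, with the first-named age over the second. The 4 metallothionein estimates lie at 0.75 to 1.30 in old versus young and 1.05 to 1.33 in old versus middle-aged muscle with wide intervals, and 0 of the 15 estimates passed after adjustment over all probes.

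The wide intervals of MT1X, MT2A and MT1G came mostly from the old group, and that of MT1E from the old and middle-aged groups. The SD among old animals was 1.94 for MT1X, 1.5 for MT2A, 1.40 for MT1G and 0.91 for MT1E, while the median SD over all tested probes was 0.185 in young, 0.190 in middle-aged and 0.198 in old muscle. Ranked by SD among the old animals, MT1X was number 5, MT2A number 11, MT1G number 21 and MT1E number 127 of 14188 probes, and MTF1 was number 4932. In the younger groups the SD of MT1X was 0.74 in young and 0.68 in middle-aged muscle, that of MT2A 0.47 and 0.26, that of MT1G 0.38 and 0.36, and that of MT1E 0.49 and 0.86. Old muscle was therefore the most variable of the 3 ages for each of these 4 probes, by a small margin for MT1E.

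Old replicates 4 and 5 held the 2 highest values of MT1X, MT2A and MT1G. The MT1X probe had an intensity of 2615 in old replicate 4 and 17300 in old replicate 5, against 220 to 1337 in the other 16 animals. On the level scale this put old replicate 5 17.1-fold and old replicate 4 2.96-fold above the median of the other 16. The brightest value, 17300, was below the highest intensity of any array (19899 to 38145).

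The MT2A probe read 2568 and 5000 in old replicates 4 and 5, against 168 to 577 in the other 16, which is 6.32-fold and 11.6-fold over their median level. The MT1G probe read 1027 and 2409, against 110 to 261 in the others, or 4.64-fold and 10.3-fold. For these 3 probes the 2 animals were the highest of all 18, with a gap below them. For MT1E old replicate 5 was also the highest, at an intensity of 2243 and 3.29-fold over the median, but old replicate 4, at 894 and 1.39-fold, was exceeded by old replicate 1 at 1225. The old MT1E level farthest from the mean of 9.63 was that of old replicate 6, at 8.14.

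MTF1 stood at 8.31 in old replicate 4 and 7.99 in old replicate 5, within the 7.35 to 8.36 of the other 16 animals. The highest MTF1 level of all belonged to old replicate 2, whose MT2A level was 8.45, against 10.94 and 11.81 in old replicates 4 and 5. The probes that were not detected in any animal were not detected in these 2 either: MT1F read 83 and 74, MT3 66 and 62, and MT1M 65 and 54 in old replicates 4 and 5.

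Without old replicates 4 and 5, a choice made after their values were seen, MT2A was 0.38 higher in old than in young muscle (SE 0.24, adjusted p = 0.672, limma) and MT1G 0.19 higher (SE 0.21, adjusted p = 0.867). MT1X turned to -0.24 (SE 0.44, adjusted p = 0.931), while MT1E kept 0.51 (SE 0.44, adjusted p = 0.80) and MTF1 0.22 (SE 0.15, adjusted p = 0.731). The median of the 4 metallothionein probes was then 0.29 between old and young muscle and 0.38 between old and middle-aged muscle. Most of the difference in MT2A, MT1G and MT1X thus lay in 2 of 6 old animals, and that of MT1E and MTF1 less so. Between old and middle-aged muscle the same fit gave 0.41 for MT2A, 0.35 for MT1G, 0.01 for MT1X, 0.84 for MT1E and 0.19 for MTF1.

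**Figure D3:**
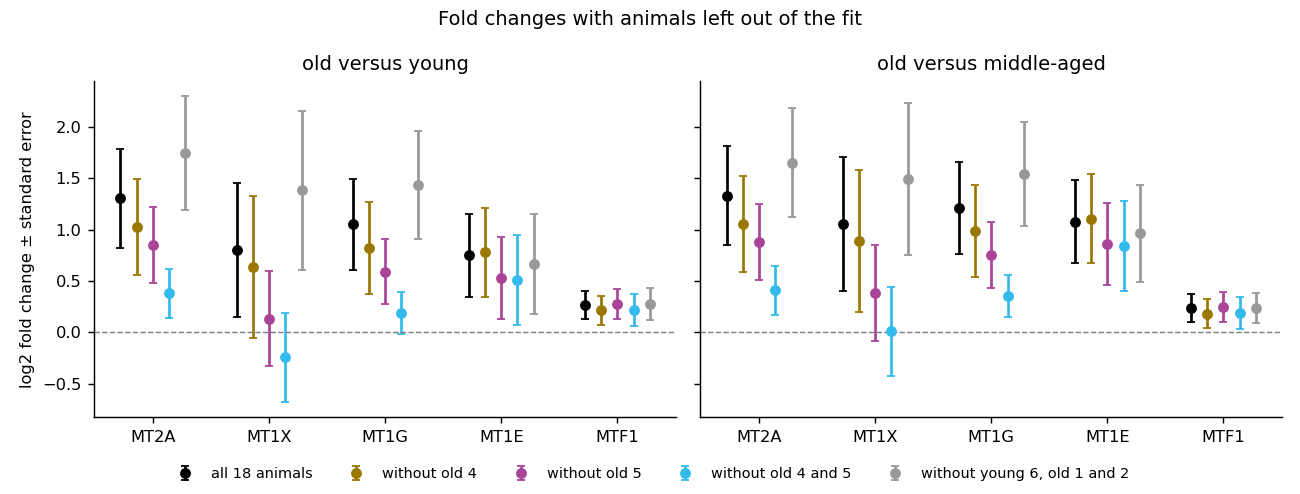
Log2 fold change with its standard error for each tested probe, in old versus young and old versus middle-aged muscle, with all 18 animals and with animals left out. Without old replicates 4 and 5 the estimates of MT2A, MT1G and MT1X lie at 0.38, 0.19 and -0.24 in old versus young muscle, and without young replicate 6 and old replicates 1 and 2 that of MT2A lies at 1.74.

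The metallothionein probes varied together across animals. A probe named for 1 of these genes can also bind others, and MT1G had no rhesus entry by that symbol. How far 2 probes read the same transcript was not tested. Of the 10 pairs of tested members, MT1G and MT2A were the most alike over the 18 animals, with a Pearson r of 0.983 and a Spearman rho of 0.926 (permutation p = 1e-05 for both, the smallest that 100000 resamples can give, adjusted 1e-04). Old replicates 4 and 5 lay apart from the rest on both probes, and without them r was still 0.882 over 16 animals. Within an age it was 0.923 in young, 0.945 in middle-aged and 0.989 in old muscle. MT1E followed both of them less closely, with r = 0.665 and rho = 0.734 for MT1G and r = 0.668 and rho = 0.692 for MT2A (permutation p adjusted over 10 pairs = 0.00374 for each r), and without old replicates 4 and 5 r was 0.676 and 0.685. Leaving out instead the 2 animals farthest from the MT1E median, middle-aged replicate 3 and old replicate 5, gave 0.559 and 0.551.

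MT1X tracked the others less closely once the 2 high animals were left out. Its r with MT1G was 0.862 (rho 0.651, permutation p adjusted = 0.00055 and 0.011), and with MT2A 0.818 (rho 0.567, adjusted 0.00123 and 0.0324). Without old replicates 4 and 5 these were 0.445 and 0.291 over 16 animals. Within an age the r with MT1G was 0.387 in young, 0.719 in middle-aged and 0.924 in old muscle, and the r with MT2A 0.235, 0.725 and 0.897, so part of both relations was also seen among the middle-aged animals. Leaving out the 2 animals farthest from the MT1X median, old replicates 5 and 6, gave 0.617 with MT2A. The r of MT1X with MT1E was 0.563 (rho 0.486, permutation p adjusted 0.0228 and 0.071), and 0.276 without them.

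MTF1 gave no relation that passed with any of the 4 over 18 animals. Its r was 0.242 with MT2A, 0.229 with MT1G, 0.20 with MT1X and -0.119 with MT1E (permutation p adjusted = 0.448, 0.448, 0.475 and 0.639), and its rho lay between -0.096 and 0.119. Without old replicates 4 and 5 the r was -0.156 with MT2A and -0.166 with MT1G. Within an age the r with MT2A was -0.282 in young, -0.367 in middle-aged and 0.056 in old muscle, with 6 animals each. The r with MT1E was below 0 in every age, at -0.642, -0.437 and -0.455 (-0.463 over all animals with the age means removed), values given with no test.

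**Figure D4:**
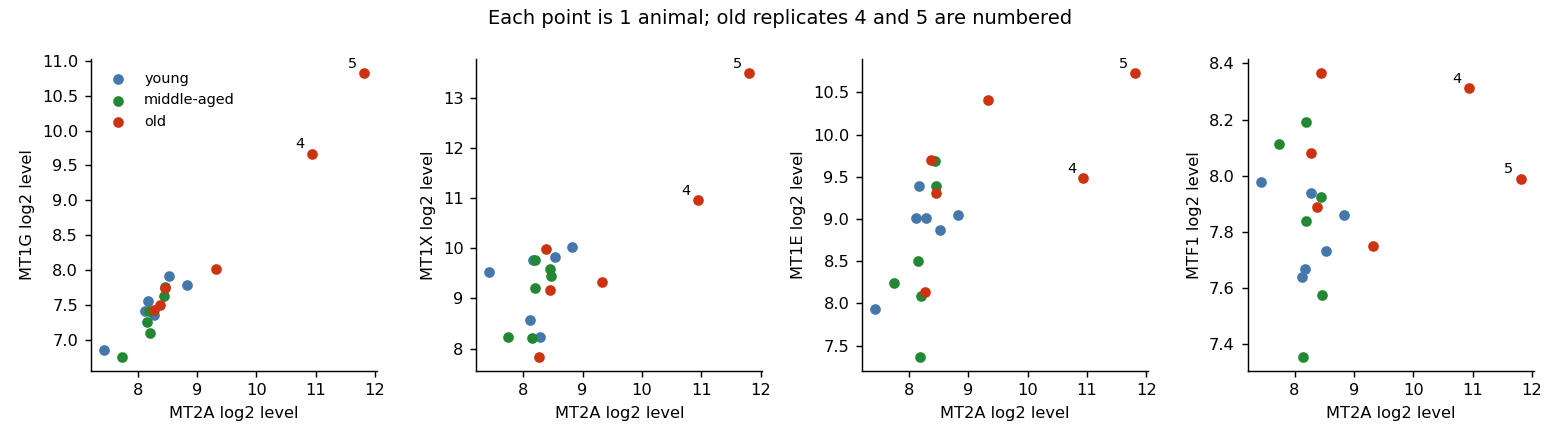
Log2 level of MT1G, MT1X, MT1E and MTF1 (y axes) against that of MT2A (x axes), with 1 point per animal coloured by age and old replicates 4 and 5 numbered. MT1G lies along a line with MT2A in all ages (r = 0.983, and 0.882 without the numbered animals), while MTF1 does not (r = 0.242, and -0.156 without them).

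The rest of the zinc and copper pathway was read from gene lists, each gene by its brightest tested probe. Of 9 zinc exporters 4 were tested, and of 14 zinc importers, the SLC39 carriers that bring zinc into the cytosol, 5. The exporters are the SLC30 family, most of which move zinc out of the cytosol. That list is named by family, and which way each carrier moves zinc in this muscle was not tested. None of these passed in any of the 3 comparisons. Among exporters SLC30A5, a carrier of the secretory pathway, was 7.36, 7.54 and 7.67 (lowest, median, highest) in young, 6.99, 7.19 and 7.50 in middle-aged and 7.05, 7.34 and 8.07 in old muscle, and differed by -0.08 between old and young muscle (adjusted p = 0.897, limma). SLC30A9 was 0.18 higher in old than in young (adjusted p = 0.686) and 0.32 higher in old than in middle-aged muscle (adjusted p = 0.235).

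Among importers SLC39A1, a carrier of the cell surface, was 0.23 higher in old than in young muscle (SE 0.11, adjusted p = 0.426, limma), and SLC39A3 differed by -0.27 (SE 0.13, adjusted p = 0.458). The median of the exporters was -0.01 and that of the importers 0.08 between old and young muscle. The exporters had a median of 0.25 between old and middle-aged muscle, with 3 of 4 above 0, and -0.18 between middle-aged and young muscle, with 4 of 4 below 0, and the importers 0.08 and -0.02. The 4 metallothionein probes had 0.93, 1.15 and -0.21 in the 3 comparisons.

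Of 13 copper handling genes 8 were tested and 0 passed in any comparison, with a median of -0.03 between old and young muscle. ATOX1, the chaperone that hands copper to the export pumps, was at -0.21 (SE 0.10, adjusted p = 0.425, limma), and SCO2, which delivers copper to cytochrome oxidase, at -0.16 (SE 0.13, adjusted p = 0.717). Of 6 other genes known to depend on MTF1 in mouse or human cells 4 were tested and 0 passed. All 4 lay above 0 between old and young muscle (median 0.21) and all 4 below 0 between old and middle-aged muscle (median -0.10). NDRG1 was 0.29 (SE 0.34, adjusted p = 0.836, limma) and CSRP1 0.24 (SE 0.22, adjusted p = 0.761) in old versus young muscle.

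Genes that share other inducers with the metallothioneins were counted the same way. Of 23 glucocorticoid-induced genes 19 were tested and 0 passed, with a median of 0.17 between old and young muscle and 11 of 19 above 0. PDK4, a kinase that inhibits pyruvate dehydrogenase, read 6.60, 6.79 and 10.39 in young, 6.89, 7.51 and 9.90 in middle-aged and 7.92, 10.06 and 11.19 in old muscle. It was 2.10 higher in old than in young (SE 0.67, adjusted p = 0.199, limma) and 1.94 higher in old than in middle-aged muscle (adjusted p = 0.145). CDKN1A, the cell cycle inhibitor p21, was 1.23 higher in old than in young (SE 0.38, adjusted p = 0.176) and 1.44 higher in middle-aged than in young muscle (adjusted p = 0.212).

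Of 14 genes of the NRF2 antioxidant response 11 were tested and 0 passed, with a median of 0.04 between old and young and 0.11 between old and middle-aged muscle. The 11 included NFE2L2, the gene of NRF2 itself, and KEAP1, so the list is not of induced genes alone. GCLM, the modifier subunit of the first enzyme of glutathione synthesis, read 8.67, 8.86 and 9.23 in young, 8.24, 8.55 and 8.81 in middle-aged and 8.60, 9.06 and 9.70 in old muscle. It was 0.57 higher in old than in middle-aged muscle (SE 0.16, adjusted p = 0.0897, limma). KEAP1, which holds NRF2 in check, was 0.33 higher in the same comparison (SE 0.11, adjusted p = 0.136).

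Of 14 genes of the signal and response of interleukin 6 and STAT3, 11 were tested and 0 passed, with 9 of 11 above 0 between old and young muscle (median 0.21). The 11 included the receptors IL6R, IL6ST, OSMR and LIFR and STAT3 itself. The list and its score therefore mix parts of the signal with genes that it raises. STAT3, the transcription factor of that response, was 0.45 higher in old than in young muscle (SE 0.12, adjusted p = 0.119, limma), at 7.60, 7.73 and 7.91 in young, 7.63, 8.0 and 8.26 in middle-aged and 7.74, 8.26 and 8.47 in old muscle. PIM1, a kinase that STAT3 induces, was 0.53 higher in middle-aged than in young muscle (SE 0.17, unadjusted p = 0.0048, adjusted p = 0.273), 0.28 higher in old than in young muscle (adjusted p = 0.572) and differed by -0.25 between old and middle-aged muscle (adjusted p = 0.452). The lists and their medians describe this chip and were not tested as sets.

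Old replicates 4 and 5 were placed on the same lists by a score for each animal, the mean over a list's tested genes of the level minus the gene's mean over 18 animals. The glucocorticoid score was 0.49 in old replicate 4 and 0.53 in old replicate 5, against -0.36 to 0.31 in the other 16 animals. The zinc exporter score was 0.28 and 0.29 against -0.27 to 0.21, and the zinc importer score 0.18 and 0.14 against -0.15 to 0.11. The NRF2 score was 0.52 and 0.18 against -0.34 to 0.15. On these 4 lists both animals were above the other 16, but on copper handling (-0.03 and -0.10 against -0.15 to 0.11), on the other MTF1-dependent genes (-0.03 and -0.22 against -0.35 to 0.49) and on the interleukin 6 and STAT3 genes (0.25 and 0.03 against -0.31 to 0.28) both were inside the range.

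Genes of these lists, some chosen after their values were seen, did not all move one way in the 2 animals. The glucocorticoid gene farthest above the median of the other 16 was PDK4, by 3.46 in old replicate 4 and 2.72 in old replicate 5, at 11.19 and 10.45 against 6.60 to 10.45. SGK1 (-0.47 and -0.18), CEBPB (-0.35 and -0.13) and ANGPTL4 (-0.20 and -0.42) lay below that median in both. FKBP5, a hormone receptor chaperone that glucocorticoids raise, was 10.86 in old replicate 4 and 10.40 in old replicate 5, against 8.69 to 9.95 in the other 16, and CEBPD, a transcription factor, 8.24 and 8.36 against 6.41 to 7.98. HMOX1, the heme oxygenase, was 10.58 in old replicate 4 and 8.11 in old replicate 5, against 6.57 to 8.12, so that old replicate 5 lay within the range of the other 16 in this gene. HMOX1 was the NRF2 gene farthest above the median of the other 16 in both animals, by 3.58 and 1.11. Of that list only NQO1 lay below the median in both (-0.47 and -0.23). How far the NRF2 score rests on HMOX1 was not tested. Neither FKBP5 (0.32, adjusted p = 0.788, limma) nor HMOX1 (0.81, adjusted p = 0.517) passed between old and young muscle.

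Set against the MT2A level over 18 animals, with 14 lists compared, the glucocorticoid score had r = 0.708 and rho = 0.467 (permutation p = 0.00099 and 0.0517, adjusted 0.0139 and 0.152). The NRF2 score had r = 0.644 (adjusted 0.0431), the zinc importers 0.582 and the zinc exporters 0.561 (adjusted 0.0431 each), and no rho of these 4 passed after adjustment. Without old replicates 4 and 5 the r were 0.30, 0.254, -0.022 and -0.036, so these relations rested on the 2 animals. Copper handling (r = -0.395, rho = -0.41) and the other MTF1-dependent genes (r = -0.063, rho = 0.321) did not pass either (adjusted p 0.191 to 0.98). For the interleukin 6 and STAT3 score neither value passed over all 18 animals, with r = 0.426 and rho = 0.645 (permutation p = 0.0735 and 0.00499, adjusted 0.172 and 0.0699). Its r was 0.634 over the 16 without the 2 animals, and 0.315 over 18 with the age means removed, both given with no test.

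**Figure D5:**
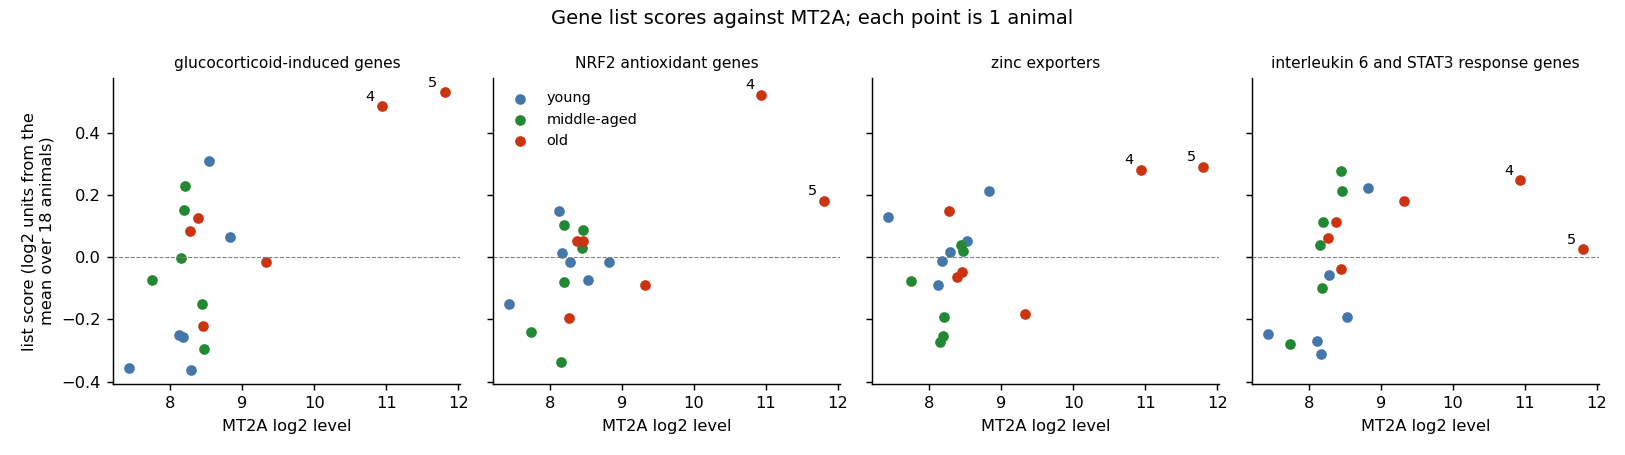
Score of 4 gene lists (y axis, log2 units from the mean over 18 animals) against the MT2A log2 level (x axis), with 1 point per animal coloured by age and old replicates 4 and 5 numbered. Both numbered animals lie above the other 16 on the glucocorticoid, NRF2 and zinc exporter lists, and inside their range, at 0.25 and 0.03, on the interleukin 6 and STAT3 list.

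Of 12 skeletal muscle fibre genes 11 were tested. This count does not identify the tissue, since 6 of 6 satellite cell genes were tested too. The fibre score of old replicates 4 and 5, -0.25 and 0.07, lay within the -1.03 to 1.01 of the other animals. Of 5 tested erythrocyte genes 3, the globins HBA1, HBA2 and HBB, were called higher in old than in young muscle (0.0916% of all probes were called higher). In that comparison 4 of the 5 lay above 0 and 1 below. Between old and middle-aged muscle 5 lay above 0 and 0 passed. The 3 globin calls were lost with the replicate number as a block, where 0 probes of the chip were called higher, and 1 probe of the chip was called higher without young replicate 2. The erythrocyte score was 1.29 to 3.04 in the other 4 old animals, but 0.57 in old replicate 4 and -0.87 in old replicate 5. The macrophage score was 0.25 and 0.70 in these 2 animals, against -0.76 to 1.22 in the other 16. The fibroblast (-0.54 and -0.84 against -1.29 to 2.01), endothelial (-0.09 and -0.26 against -0.42 to 0.93) and satellite cell scores (0.13 and -0.19 against -0.35 to 0.34) were also inside the range, while the adipocyte score, 0.18 and -0.39 against -0.33 to 0.78, was just below the range in old replicate 5. Set against the MT2A level among the 14 lists described above, the macrophage score had r = 0.458 and rho = 0.569 (permutation p = 0.0542 and 0.0158, adjusted 0.152 and 0.111), and r = 0.453 without old replicates 4 and 5. The erythrocyte score had r = 0.064 and rho = 0.059 (adjusted 0.98 and 0.88), but with the age means removed r was -0.792, a value given with no test. The other 5 marker scores had r between -0.193 and -0.006 and rho between -0.389 and 0.395, with adjusted p of at least 0.194. Without old replicates 4 and 5 the r was 0.483 for the endothelial, 0.428 for the adipocyte and 0.334 for the fibroblast score. It was 0.35 for the erythrocyte, -0.179 for the fibre and -0.157 for the satellite cell score, all given with no test. The arrays of old replicates 4 and 5 had a mean correlation of 0.963 and 0.956 with the other arrays, against 0.944 in young replicate 6 and 0.960 to 0.972 in the rest, and detected 26.5 and 26.7% of probes, within the 24.5 to 30.5% of all arrays.

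Named probes whose level followed the metallothioneins most closely were found by their Pearson correlation, over 18 animals and 10486 probes, with the mean of the 4 metallothionein probes after centring each. The 5 highest were IGLL1 (0.881), an immunoglobulin light chain relative whose probe may bind related chains, TRAPPC10 (0.854), a subunit of a vesicle tethering complex, SLC7A6 (0.853), an amino acid transporter, RHBDD2 (0.844), a rhomboid family protein, and FBXO30 (0.839), a ubiquitin ligase subunit known in mouse from muscle wasting. IGLL1 was 9.49 and 9.97 in old replicates 4 and 5, against 6.35 to 8.45 in the other 16, and SLC7A6 7.96 and 8.18 against 6.53 to 7.15. Without the 2 animals the r was 0.653 for IGLL1, 0.553 for TRAPPC10, 0.321 for SLC7A6, 0.75 for RHBDD2 and 0.595 for FBXO30, so RHBDD2 depended on them least and SLC7A6 most.

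The 3 lowest were VCL (-0.845), the cytoskeletal linker vinculin, ASB10 (-0.839) and SERF2 (-0.804). Without old replicates 4 and 5 these were -0.704, -0.462 and -0.072. With the age means removed, the 3 highest were EPB41L4A-AS1 (0.924), an antisense RNA, CD2BP2 (0.858), a splicing factor subunit, and PPHLN1 (0.842), and without the 2 animals the r over the other 16, age means kept, was 0.382, 0.034 and 0.274. These are descriptions of 18 animals that share a platform and a few outlying values, and 0 of these 11 probes passed between old and young muscle in limma, with FBXO30 at 0.52 (adjusted p = 0.276) and IGLL1 at 1.03 (adjusted p = 0.426).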

How the data were processed

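Each of 18 vastus lateralis biopsies gave RNA for 1 Sentrix Human HT-12 array. The authors extracted it with Trizol, amplified and biotin-labelled it, and deposited linear probe intensities without normalization, read with GenomeStudio 2011.1 per the labels, with a detection p-value for each probe as deposited. Whether a background was subtracted is not given in the sources used here, and 0 intensities were at or below 0. The authors also deposited Z scores of the natural log intensity within each array, which differed by at most 0.0184 from those recomputed here. The number of arrays limits the precision.

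Of 47323 probes, 30113 carried 1 symbol in the platform annotation, 8 several and 17202 none. To read in log2 units, a Z score was scaled by 1.19 (the SD of an array's log2 intensities, averaged) and 6.72 was added. A probe entered the test if 6 or more arrays detected it (p under 0.05), which gave 14188 probes. They went into 1 limma fit with 3 age means (R 4.3.3, limma 3.58.1), and p-values were adjusted by Benjamini-Hochberg over the 14188, with a threshold of 0.05. Fits were tested on simulated data. Correlations were tested with 100000 permutations (Python 3.11.15, numpy 2.4.6, scipy 1.17.1, pandas 2.3.3), and plots drawn with matplotlib 3.10.9. The deposited files held 0 columns that could not be assigned to a sample.

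All member probes are accounted for. Of each pathway list, probes that passed are named, or else the 2 with the smallest unadjusted p, and by correlation with the mean of the metallothionein probes the 5 highest, 3 lowest and, within ages, 3 highest named probes. The members and lists were chosen with earlier results of these data known. Alternatives were quantile normalization, neqc with an offset of 16, the deposited Z scores, no filter, a detection p under 0.01, the brightest probe of each symbol, a block on the replicate number, array weights, fits of 2 ages alone, a fit of 15 animals (young replicate 6, old replicate 1 and old replicate 2 dropped), leaving out each animal, and the methods' t-test on Z scores. A fit lacking old replicates 4 and 5 was chosen once their values were known.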

Additional observations from a re-analysis of the deposited data

Results flagged for a closer look

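Of 15 groups of 6 animals tested (5 probes in 3 ages), 1 held a value far from the others, where chance gives about 1 in 20. It was MT1E (ILMN_2173611) in young replicate 2, at a log2 level of 7.94, with the next young animal at 8.87 and the highest at 9.40. Its gap was 0.636 of the group's range, above the limit for groups of 6. Old replicates 4 and 5 were not picked out by this measure for any probe, since it looks at the gap of 1 animal to its nearest neighbour.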

How the results depend on the processing

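Of 435 single-probe log2 fold changes under the alternatives, 424 kept their sign and 0 passed an adjusted p of 0.05. Many of these estimates could not move. No filter, the stricter detection p, the brightest probe, 2 ages alone and the block all leave a single-probe estimate as it was. Leaving out an animal of the age not compared does so too. The count of kept signs, here and below, therefore includes unchanged estimates and overstates how stable the signs are. In the comparisons with old muscle the sign turned in 1 of 290, MT1X in old versus young muscle without old replicates 4 and 5 (-0.24). In middle-aged versus young muscle MT2A, near 0, turned to 0.053 with quantile normalization, 0.083 with neqc, 0.067 with array weights and 0.092 with the 15 animals; leaving out 1 animal gave MT2A -0.19 to 0.092 (above 0 without young replicate 1, 0.033, young replicate 6, 0.092, or middle-aged replicate 2, 0.063) and MTF1 -0.041 to 0.13 (below 0 without young replicate 4, -0.0019, or middle-aged replicates 2, -0.026, or 3, -0.041). With no filter on dim probes the median between old and middle-aged muscle was 0.067, since it then took in the undetected probes. The methods' t-test called 1 member, MTF1, between old and young muscle, in place of 0, and 2.14% of the chip (1015 probes). Leaving out 1 animal moved the median of the metallothionein probes to 0.56 to 1.27 in old versus young, 0.81 to 1.47 in old versus middle-aged and -0.29 to -0.068 in middle-aged versus young muscle. Without old replicate 5 MT1X was 0.13 and MT1G 0.59, and without old replicate 6 MT1X was 1.26, in old versus young muscle.

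Equal replicate numbers name different animals and pair nothing: deviations of same-numbered animals correlated at -0.177 to 0.204, over 0.1 in 2 of 18 pairs. With the number as a replicate block, 0 members passed and MT2A was 1.30 between old and young muscle (adjusted p = 0.262, limma). Over the chip the block took the calls in that comparison to 0 higher and 0 lower, from 13 and 14; the other alternatives reached 79 higher and 70 lower. Between old and middle-aged muscle 56 were higher and 68 lower, over a range of 1 to 118 and 1 to 142. Between middle-aged and young muscle 0 were higher and 3 lower, over a range of 0 to 9 and 0 to 21. Probes detected on too few arrays to be tested, 6 of the 11 here, set no limit on their genes.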
